A study of Homo sapiens with 2 samples.

Results

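A group of 10 genes of the intestinal brush border were followed in AsPC-1 cells kept with or without compression. They were VIL1, PLS1, ANKS4B, GPA33, ANXA13, TM4SF4, CLRN3, ANPEP, A1CF and APOA4, which encode structural and surface proteins of enterocytes, an apolipoprotein (APOA4) and an RNA-editing cofactor (A1CF). The 10 genes were picked by name, with their differences between these arrays already known, out of 14884 genes that had a named probe set. Their values are therefore a description of a chosen group, and nothing is inferred from the group's direction. AsPC-1 is an established human pancreatic adenocarcinoma line, here grown under a collagen gel overlay. The uncompressed group was 1 culture without applied stress and the compressed group 1 culture under a stress of 2.9 mmHg, each harvested after 24 h. Each culture gave RNA for 1 GeneChip Human Gene 2.0 ST array, which reads whole transcripts. Because a condition had only 1 array, differences are described by size without any test, nothing shows how cultures vary, and "lower" and "higher" refer to these 2 arrays.

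The brush border is the carpet of microvilli on the apical face of absorptive epithelia such as that of the small intestine. Villin and plastin 1 bundle the actin filaments of the microvillar core, protocadherin links between neighbouring tips hold the microvilli in register, and peptidases and transporters sit in the membrane. Many pancreatic carcinomas express genes of the gastrointestinal epithelium, and factors of the HNF4, CDX and GATA families drive many of these genes in the gut.

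The stretches of 250 bases before the annotated transcript starts of 5 of the genes are shown as examples. They are examples with and without short sequence cores of the HNF4, CDX and GATA families or of the TATA box. GPA33, TM4SF4 and CLRN3, which hold cores, and ANKS4B, which holds none, all had lower levels in the compressed culture, and ANPEP, which holds none, a higher one. The choice of windows was made with these values known, and no link between a core and a direction is drawn from it. The sequences are those of RefSeq (GRCh38.p14), written 5′ to 3′ along the gene's strand. Capitals mark any of 4 cores on either strand: CAAAGT for HNF4, CCATAAA for CDX, AGATAA for GATA and TATAAA for the TATA box. Only exact copies of these letters were searched, so a variant of a core is not marked. The GPA33 window lies on the minus strand at chr1:167090378-167090627, that of TM4SF4 on the plus strand at chr3:149474447-149474696 and that of CLRN3 on the minus strand at chr10:127892942-127893191. The ANKS4B window lies on the plus strand at chr16:21233449-21233698 and the one shown for ANPEP on the minus strand at chr15:89806629-89806878.
GPA33: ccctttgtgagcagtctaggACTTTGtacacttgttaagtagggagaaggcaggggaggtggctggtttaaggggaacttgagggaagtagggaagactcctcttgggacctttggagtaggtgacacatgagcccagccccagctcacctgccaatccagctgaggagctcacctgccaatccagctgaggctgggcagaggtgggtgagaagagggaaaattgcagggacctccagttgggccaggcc
TM4SF4: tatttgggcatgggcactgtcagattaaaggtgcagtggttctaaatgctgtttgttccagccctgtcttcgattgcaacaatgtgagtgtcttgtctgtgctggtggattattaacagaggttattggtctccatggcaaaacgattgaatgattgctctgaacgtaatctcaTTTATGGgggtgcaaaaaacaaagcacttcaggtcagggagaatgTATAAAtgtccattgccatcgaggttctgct
CLRN3: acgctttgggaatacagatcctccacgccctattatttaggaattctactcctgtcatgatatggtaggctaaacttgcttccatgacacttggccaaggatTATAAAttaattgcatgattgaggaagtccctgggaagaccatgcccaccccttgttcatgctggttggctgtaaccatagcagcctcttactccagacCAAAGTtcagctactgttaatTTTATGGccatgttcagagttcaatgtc
ANKS4B: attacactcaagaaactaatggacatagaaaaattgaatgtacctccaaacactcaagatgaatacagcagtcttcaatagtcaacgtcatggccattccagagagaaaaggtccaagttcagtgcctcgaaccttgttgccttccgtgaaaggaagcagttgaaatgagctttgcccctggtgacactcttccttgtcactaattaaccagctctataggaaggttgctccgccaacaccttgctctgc
ANPEP: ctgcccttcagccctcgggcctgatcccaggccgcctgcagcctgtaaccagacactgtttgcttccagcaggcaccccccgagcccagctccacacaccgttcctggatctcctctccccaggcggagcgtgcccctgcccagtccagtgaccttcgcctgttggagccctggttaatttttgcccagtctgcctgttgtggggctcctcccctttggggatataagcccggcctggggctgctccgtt

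Of the 10 genes, 8 had at least 1 window in the RefSeq table, with 11 windows in all, since PLS1 has 3 and ANPEP 2. VIL1 and ANXA13 had no window there. The core CCATAAA, read on the opposite strand as TTTATGG, was found in windows of 3 genes, CLRN3, TM4SF4 and PLS1, and in 2.3% of all 35116 windows of the same length. It spanned 28 to 22 bases before the start in CLRN3 and 76 to 70 in TM4SF4. CAAAGT was found for CLRN3, 49 to 44 bases before the start, and on the opposite strand for GPA33, 230 to 225 bases before it, and in 10.3% of all windows. AGATAA was found for A1CF and PLS1 (9.17% of all windows) and TATAAA for A1CF, CLRN3 and TM4SF4 (10.7%). The TATAAA of TM4SF4 spanned 31 to 26 bases before the start, that of CLRN3 148 to 143 and that of A1CF 205 to 200, and the A1CF one overlapped a second copy on the other strand. Both ANPEP windows and those of ANKS4B and APOA4 held none of the 4 cores. A match shows only that these letters are present, and no binding was measured.

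The 10 genes were each read by 1 probe set, as log2 RMA signals. Of these, 9 passed the level floor, which is a mean over both arrays at or above the median of all genes, 4.79 on the log2 scale. The same 9 lay above the floor on each array separately, and APOA4 did not pass. Among the 9 genes, 6 were at least 1.5-fold lower in the compressed culture (a log2 difference of at least 0.585 in size) and 1 was at least 1.5-fold higher. In the background of 7442 genes at or above the floor, 1.12% were at least 1.5-fold lower and 3.95% at least 1.5-fold higher. At a size of 2-fold, 3 of the 9 genes were lower and 0 higher, beside 0.0806% and 0.954% of the background. Over all 14884 named genes with no floor, 7 of the 10 genes were at least 1.5-fold lower and 1 higher, beside 2.83% and 3.76%. The 7 include APOA4, whose low signal cannot be told from background. Since the genes were chosen from this contrast, nothing is read from the gap between these shares. The median difference, compressed minus uncompressed, was -0.89 for the 9 genes and 0.01 for all genes at or above the floor, for which the quartiles were -0.15 and 0.18. In cultured cells measured in bulk, fewer cells expressing a gene and less RNA per cell cannot be told apart.

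**Figure D1:**
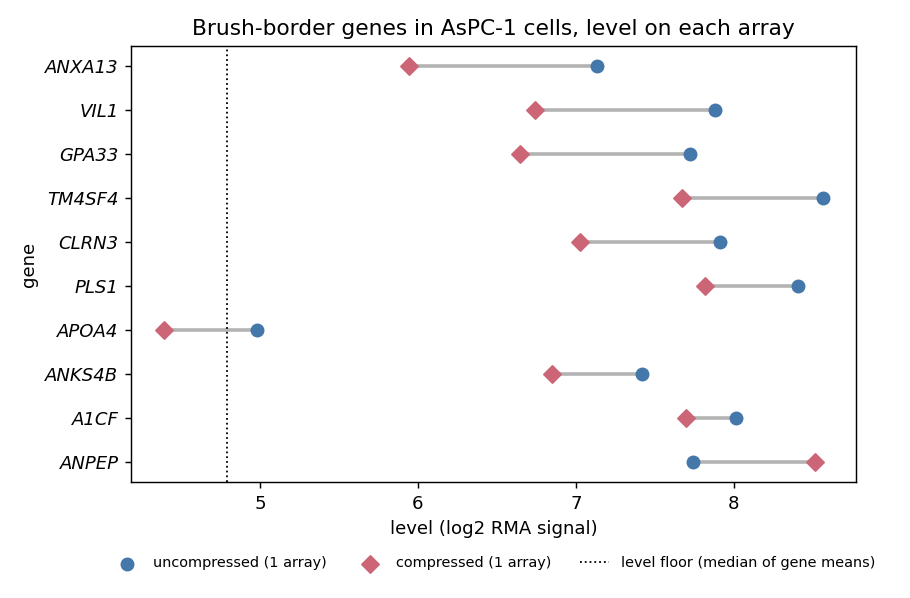
Level of each brush-border gene on the uncompressed array (circles) and the compressed array (diamonds), in log2 RMA signal, with genes ordered by their difference and the level floor of 4.79 as a dotted line. The compressed value lies to the left of the uncompressed one for 9 genes and to the right for ANPEP, and only the APOA4 symbols straddle the floor.

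The actin-bundling and scaffold genes were lower in the compressed culture by unequal amounts. VIL1, which encodes villin, the calcium-regulated actin bundler of microvilli, read 7.88 without and 6.74 with compression, a 2.20-fold lower level. PLS1, which encodes plastin 1, a second bundler of the microvillar core, read 8.41 and 7.82. Its level was 1.51-fold lower, just inside the size counted. ANKS4B encodes an ankyrin-repeat scaffold of the complex that anchors the protocadherin links between microvilli, and read 7.42 and 6.85. At 1.49-fold lower, ANKS4B lay just outside the size counted, so PLS1 and ANKS4B fall on opposite sides of it with differences of -0.59 and -0.57. These sides changed with the processing, since after a loess correction of the difference against level PLS1 (-0.580) was not counted and ANKS4B (-0.587) was. As a guide to precision, 169 genes were read by 2 distinct probe sets above the floor, and their disagreement corresponds to an SD of 0.19 per probe set. That SD covers the probes and not the spread between cultures, and the gap between PLS1 and ANKS4B is smaller than it.

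The membrane and surface genes held most of the large differences. ANXA13, an annexin of intestinal epithelium that binds membranes in the presence of calcium, read 7.13 without and 5.94 with compression, 2.28-fold lower. GPA33, an immunoglobulin-superfamily antigen on the surface of intestinal epithelial cells, read 7.72 and 6.64, or 2.11-fold lower. Ordered from the lowest difference among the 7442 genes, ANXA13 was at place 2, VIL1 at place 4 and GPA33 at place 5. TM4SF4, a multispan membrane protein of the L6 family, read 8.57 and 7.67, 1.86-fold lower. CLRN3, a member of the clarin family of membrane proteins, read 7.91 and 7.03, 1.85-fold lower, and stood next to TM4SF4 at places 11 and 10. PLS1 and ANKS4B followed at places 81 and 89.

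ANPEP went the other way. This gene encodes aminopeptidase N, also called CD13, a zinc-dependent brush-border peptidase that trims amino acids from the ends of peptides and is also made by myeloid and stromal cells. It read 7.74 without and 8.51 with compression, a 1.71-fold higher level and the 144th highest difference among the genes at or above the floor. ANPEP is known to have separate promoters for myeloid and for epithelial cells, and a single probe set does not separate their transcripts. Thus the 10 genes did not all share a direction.

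The genes of lipoprotein RNA editing and lipid export showed the smallest or the least certain differences. A1CF, the RNA-binding cofactor that guides APOBEC1 to the apolipoprotein B transcript, read 8.01 and 7.70, which is 1.24-fold lower and short of the size counted. APOA4, an apolipoprotein that enterocytes load onto chylomicrons, read 4.98 without and 4.39 with compression. Its compressed level lay below the floor and its mean of 4.69 just under it. Without detection calls its signal there cannot be told from background, and its difference is not given as a fold.

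**Figure D2:**
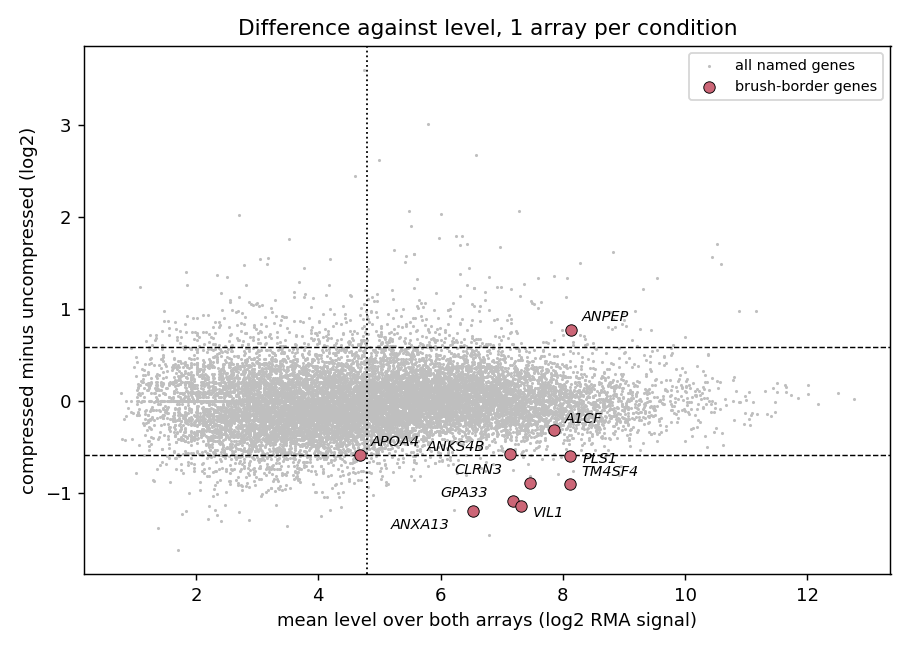
Difference compressed minus uncompressed (log2) against the mean level over both arrays (log2 RMA signal) for all 14884 named genes (grey) and the 10 brush-border genes (red), with dashed lines at 1.5-fold and a dotted line at the floor of 4.79. VIL1, GPA33 and ANXA13 lie near the lower edge of the cloud at differences between -1.19 and -1.08, A1CF lies at -0.31, and ANPEP lies above the upper line at 0.77.

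Other genes of microvillus structure did not share the size of the VIL1 difference. Of 32 genes listed, none of them among the 10, 26 had a named probe set and 24 passed the floor. Of these, 0 were at least 1.5-fold lower, 1 was higher and 13 had a negative difference. Among all genes at or above the floor these shares were 1.12%, 3.95% and 46.8%. The counts of 0 and 1 among 24 genes are near the first 2 shares, and VIL1 was chosen for its value. The median of the 24 genes was -0.063. MYO1A, the brush-border myosin that tethers the actin core to the membrane, read 6.59 and 6.11, a difference of -0.48. CALML4, a light chain of the myosin of the intermicrovillar link complex, differed by -0.35, and that myosin, MYO7B, by -0.22. The link protocadherin genes CDHR2 and CDHR5 differed by 0.01 and -0.06, and CDHR2 by -0.03 after loess correction. Among genes of the complex that holds ANKS4B, the partners given here differed by less than ANKS4B did. ANKS4B was chosen with its value known, so nothing is read from this gap. PACSIN2, a membrane-bending protein, differed by -0.27. EZR, which encodes ezrin and links microvillar actin to the membrane, read 11.17 and 11.03. Its difference was -0.13, and -0.36 after repeated quantile normalization. EPS8, which encodes an actin-capping and bundling protein of microvillar tips, read 8.40 and 8.56. EPS8L2, an EPS8 relative, differed by 0.17, and SNX9, a sorting nexin of endocytosis, was 1.55-fold higher (7.44 and 8.08).

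Most digestive and absorptive genes that define mature enterocytes were at low signal on both arrays. Of 49 genes listed, 21 had a named probe set, 15 of these lay below the floor on both arrays and 4 passed it. SI, which encodes sucrase-isomaltase, read 1.85 and 2.09, and LCT, which encodes lactase, 3.67 and 3.42. The 4 genes that passed were DGAT1, the triglyceride-forming acyltransferase (8.50 and 8.14), DPP4, a brush-border dipeptidyl peptidase (8.78 and 8.52), PEPD, a dipeptidase (7.15 and 6.94), and CRIP1, a cysteine-rich intestinal protein (5.98 and 6.47). None of the 4 reached 1.5-fold, beside 1.12% lower and 3.95% higher among all genes at or above the floor. The median of the 4 was -0.24. DPP4 and ANPEP, both apical peptidases, thus differed in opposite directions, by -0.26 and 0.77. SI and LCT thus lay under the floor on each array, as did the disaccharidase genes MGAM (2.54 and 2.42) and TREH (4.26 and 4.09). Of the 10 brush-border genes 9 lay above it, but they were chosen with earlier results of these data known. Nothing is read from that contrast.

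Among surface genes of the intestinal epithelium, 19 of 26 had a named probe set and 9 passed the floor. TSPAN8, a tetraspanin of gastrointestinal epithelium, was 1.73-fold lower (8.31 and 7.52) and was the 1 gene of the list past the size counted. Of all genes at or above the floor, 1.12% were at least 1.5-fold lower and 3.95% higher. CLDN2, a pore-forming claudin, differed by -0.41 and EPCAM, the epithelial adhesion molecule, by -0.34 (-0.53 after repeated quantile normalization). CEACAM1, an adhesion molecule, differed by 0.28, TSPAN1 by 0.07 and CEACAM5 by 0.06. The carcinoembryonic-antigen relative CEACAM6 read 10.88 and 10.87, but differed by -0.24 after repeated quantile normalization. The median of the list was -0.0060, and -0.24 after repeated quantile normalization, where that of all genes at or above the floor was -0.028.

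Transcription factors of intestinal and foregut identity showed small differences. Of 35 listed, 22 had a named probe set and 17 passed, and 0 were past 1.5-fold in either direction. Among all genes at or above the floor 1.12% were past it lower and 3.95% higher. A count of 0 among 17 genes is near these shares, and nothing is read from it. Of the 17, 11 had a negative difference, 5 a positive one and SMAD4 the same value on both arrays, with a median of -0.13. Of all genes at or above the floor, 46.8% had a difference below 0. The largest negative differences were those of ATOH1, which specifies secretory cells, at -0.44, GATA5 at -0.42 and CREB3L3, a membrane-bound factor that drives apolipoprotein genes in liver and gut, at -0.42 (8.22 and 7.80). CDX2, the homeodomain factor of intestinal identity, read 5.03 and 4.68, so its compressed level lay below the floor, as did those of ATOH1 and GATA5. KLF3 had the largest positive difference, 0.39, followed by FOXA2 at 0.14 and ONECUT2 at 0.09. HNF4A and HNF4G had no named probe set here and were not analysed.

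Secretory and crypt genes were mostly dim. Of 28 listed, 20 had a named probe set and 8 passed. Of the 8, 1 was past 1.5-fold lower, beside 1.12% of all genes at or above the floor. That gene was AXIN2, a Wnt target, with 5.22 in the uncompressed and 4.57, below the floor, in the compressed culture. SPDEF, a goblet cell factor, differed by -0.54 and FCGBP, a mucus protein, by -0.41, both near the floor. LGR5, a stem cell receptor, differed by 0.04 (-0.03 after repeated quantile normalization), SOX9 by 0.10 and TFF1 by 0.14. The median was -0.25.

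**Figure D3:**
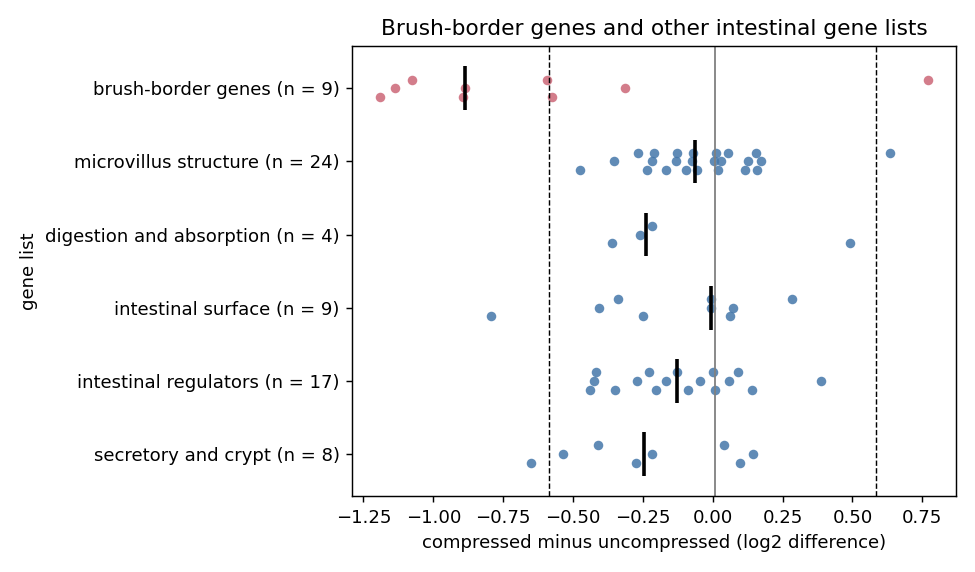
Difference compressed minus uncompressed (log2) of the genes at or above the level floor in 6 lists, with 1 point per gene, the list median as a black bar, the median of all genes as a grey line and dashed lines at 1.5-fold. Of the 9 brush-border genes, which were chosen for these values, 6 lie left of the lower line. The same holds for 0 of 24 microvillus structure genes and 0 of 17 regulators, beside 1.12% of all genes at or above the floor.

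Relatives of the brush-border genes in the same protein families had differences in both directions. In the villin and gelsolin family, 6 of 7 relatives had a named probe set. FLII differed by 0.38, SVIL by 0.29 and GSN by -0.11, while VILL (-0.28), AVIL (-0.03) and SCIN (0.29) lay below the floor on both arrays. Of the other plastins, PLS3 read 9.52 and 8.99, a difference of -0.53 close to that of PLS1, and LCP1, the plastin of blood cells, differed by 0.23. In the L6 family of TM4SF4, TM4SF19 differed by 0.56, TM4SF1 by 0.33 (10.12 and 10.45), TM4SF5 by 0.33 and TM4SF18 by -0.10. TM4SF20 (-0.94) lay below the floor on both arrays, at 4.01 and 3.07. Of the 12 other annexins, 9 passed the floor, 2 were at least 1.5-fold higher and 0 lower. Among all genes at or above the floor these shares were 3.95% and 1.12%, and with 9 genes nothing is read from the counts. ANXA3 was 1.78-fold higher (8.55 and 9.38) and ANXA2 1.56-fold (5.90 and 6.54), whereas ANXA4 differed by -0.47 (10.86 and 10.38). The probe set named for the pseudogene ANXA2P2 was far brighter, at 11.83 and 11.86, and differed by 0.03. Whether it also reads ANXA2 RNA was not tested, so the dim ANXA2 probe set may not stand for that gene. When quantile normalization was repeated over the named probe sets, ANXA2 was just under the size counted and ANXA4, at -0.67, was past it. ANXA5 differed by 0.35, ANXA11 by -0.21 and ANXA8 by -0.06. CLRN2, the 1 other clarin with a named probe set, lay below the floor (4.22 and 4.26). Of the proteins that act with A1CF in editing, RBM47 read 5.26 and 4.74, HNRNPR 8.58 and 8.40 and KHSRP 7.36 and 7.16, and RBM46 lay below the floor.

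Markers of the cell type and of other cells were read beside these results. Of 15 markers of ductal epithelium, 8 had a named probe set and 6 passed the floor, with differences from -0.34 to 0.18. KRT18 (11.54 and 11.71), KRT19 (10.78 and 10.79) and EPCAM (10.77 and 10.43) were at high signal, and KRT8 read 6.13 and 6.21. After repeated quantile normalization KRT19 differed by -0.23. KRT7 (3.36 and 3.78) and CLDN4 (4.80 and 4.73) did not pass the floor. Acinar and islet markers lay below the floor on both arrays for all 6 named genes. Of 5 named endothelial markers 3 lay below it on both arrays, as did 3 of 6 immune and 2 of 3 fibroblast markers. The exceptions included LUM (9.75 and 9.39), LYZ (9.04 and 8.82) and CD68 (8.45 and 9.26). Of the 3 immune markers that passed the floor, CD68 and TYROBP (4.77 and 5.24) were higher and LYZ was lower in the compressed culture. Any relation of these markers to ANPEP was not tested.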

How the data were processed

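RNA of 1 uncompressed and 1 compressed AsPC-1 culture was measured on 1 array each. Per the submitters' processing notes, the authors used RMA and the Transcriptome Analysis Console, and the deposited values are log2 signals. RMA subtracts background, forces the arrays onto one distribution and summarises probes, so a shift common to the whole transcriptome is lost. It can also make the difference of a dim probe set too small. At 1.5-fold, 2.83% of all named genes were lower and 3.76% higher, beside 1.12% and 3.95% at or above the floor. How far noise adds to the differences of dim genes was not tested. The tool versions and build were not given in the sources used here. There were 53617 probe sets; signals spanned 0.162 to 13.3 without compression and 0.289 to 13.2 with it. No detection calls were used, so dim signal cannot be told from background. Having 2 arrays limits the precision.

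The platform annotation named 16098 probe sets with 1 gene each, and all were matched to RefSeq (GRCh38.p14) by gene identifier. Of the 37519 other probe sets none was named. The probe set with the highest mean stood for a gene, and 7442 of 14884 genes at or above the median mean were kept. Groups came from the treatment label. The difference was computed per gene and counted at 1.5-fold. No test was made. Some items are not reported here.

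The 10 genes, the other lists, the size and the sequence cores were chosen with earlier results of these data known. Named genes are the 10, every named relative of villin, plastin, TM4SF4, CLRN3 and A1CF, and up to 3 genes with the largest differences in each direction per list. Any other gene is named to describe its list, after its values were seen. On simulated data for this comparison (7442 genes, noise SD 0.248), the size rule found 97 of 100 genes made 2-fold lower and 93 of 100 made 2-fold higher. The noise was set from the quartiles of these same differences and is not a measured spread between cultures. False calls were not counted, so this check does not show how reliable a counted gene is. Alternatives were other level floors, other sizes, the mean of probe sets, the mean in place of the median, a loess correction (span 0.3), centring and repeated quantile normalization. Python 3.11.15, NumPy 2.4.6, pandas 2.3.3, statsmodels 0.14.6 and matplotlib 3.10.9 were used.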

Additional observations from a re-analysis of the deposited data

How the results depend on the processing

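The count of brush-border genes at least 1.5-fold lower was 6 or 7 under every floor, probe set, loess, centring and normalization alternative, and 1 gene, ANPEP, was higher in each. At a size of 2-fold, 3 were lower (VIL1, GPA33 and ANXA13) and 0 higher, and at a log2 size of 0.32, 7 were lower, beside 8.28% of genes at or above the floor, and 1 higher, beside 13.5%. PLS1 did not reach the log2 size of 0.585 after loess correction (-0.580), whereas ANKS4B reached it there (-0.587) and after repeated quantile normalization (-0.61). With no level filter APOA4 was counted as lower too, beside 2.83% of all named genes. Its difference of -0.587 was just past the size, and after repeated quantile normalization (-0.567) it fell short. The median of the brush-border genes stayed between -0.89 and -0.74, and their mean was -0.66.

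With no level filter the median was -0.13 for digestion and absorption genes and -0.087 for intestinal surface genes. The surface median was -0.023 after loess correction, -0.013 after centring and -0.24 after repeated quantile normalization. With the floor at the 75th percentile the median was 0.00 for regulators (7 genes), -0.032 for microvillus structure genes and -0.060 for secretory and crypt genes (2 genes). No paired analysis was possible because each group has 1 array.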

Other observations

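Gut epithelial genes whose means lay under the level floor had differences in both directions, and they are in no count of genes at or above the floor. Those given here were singled out after their values were seen, and no fold is given because such low signals are not known to be above background. AGR2, a protein disulfide isomerase of mucus-secreting cells, read 4.16 without and 2.81 with compression. TM4SF20, a relative of TM4SF4, read 4.01 and 3.07, TMIGD1, a microvillar adhesion protein, 4.96 and 4.19, and KRT20, a keratin of differentiated intestinal epithelium, 3.62 and 3.09. In the other direction, CA2, a carbonic anhydrase, read 4.34 and 4.97, MTTP, which loads lipid onto apolipoprotein B, 2.88 and 3.44, and CD24, a surface glycoprotein, 2.00 and 2.39. PDZK1, a scaffold of apical transporters, read 2.45 and 2.77.

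Among other apolipoprotein genes, 12 of 16 had a named probe set and 3 passed the floor. CLU, which encodes the secreted chaperone clusterin, was 2.05-fold higher (5.09 and 6.13), APOE differed by -0.12 and APOA5 by -0.05. The genes for the structural proteins of chylomicrons and related particles, APOB (3.44 and 3.02), APOA1 (4.32 and 4.24) and APOC3 (4.80 and 4.33), were under the floor by their means, like APOA4.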
